A study of Homo sapiens with 15 samples.

Results

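The expression identity of OCI-AML5 cells was described from the 6 libraries of the series, of 15 in all, that received no compound and no targeting shRNA. OCI-AML5 is an established line derived from acute myeloid leukaemia, and the series title speaks of mtRUNX1 AML cells. The libraries were chosen by their labels and by no measured value: 3 are of untreated cells from the drug experiment (control) and 3 are of cells transduced for 72 h with a non-targeting shRNA. All 15 libraries came from cells kept in Alpha MEM that held 20% FBS, with GM-CSF added at 10 ng/mL, a cytokine that supports the growth and survival of myeloid cells, so no library shows the line without it. The other 9 libraries, used here to show how the same genes differed between conditions, are 3 each of cells exposed for 4 h to 1000 nM OTX015, of cells exposed for 4 h to 1000 nM ARV-825, and of cells transduced for 72 h with an shRNA against RUNX1. OTX015 inhibits BET bromodomain proteins, and ARV-825 is a degrader of the same proteins. The titles of the RUNX1 shRNA libraries name Runx3 and their treatment label names RUNX1, which was followed. The level of RUNX3 is not given here, so the RUNX1 values that follow do not settle which name is right. RUNX1 was at 69.8, 72.2 and 69.8 FPKM with the non-targeting shRNA and at 37.2, 42.9 and 36.03 FPKM in the libraries labelled RUNX1 shRNA, a log2 difference of -0.85 ± 0.059 (SE) by limma with Benjamini-Hochberg adjustment, adjusted p = 3.71e-05. A single line stands for 1 leukaemia, and the labels name no clone, culture date or batch.

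Levels are given as FPKM, read counts corrected for transcript length and sequencing depth, a unit that allows genes of different length to be set side by side within a library. The drug and the shRNA libraries are in separate tables, read as normalized each on its own, so between control and non-targeting shRNA only ranks were compared. The rank is a percentile among the 19604 genes listed, in which 100 is the highest and all genes listed at 0 share a percentile near 11.4. A level of 1 FPKM fell near percentile 45 in control and 44.3 with the non-targeting shRNA, 10 FPKM near 68.1 and 66.1, and 100 FPKM near 96.5 and 96.1. In bulk RNA, a level shared by all cells and a higher level in a part of them cannot be told apart.

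The 6 libraries were close to each other in their gene ranks. Per library, 10738 to 10780 genes reached 1 FPKM in control and 10913 to 10927 with the non-targeting shRNA. Each table is read as quantile normalized, which gives its libraries nearly the same set of values. Like counts within a group therefore do not show that its libraries are close. The share of all 19604 genes whose group mean reached it was 54.9% and 55.7%, the background for the list counts that follow. Of the group means, 10632 genes reached it in both groups, 137 in control only and 288 with the non-targeting shRNA only, and 2975 genes were listed at 0 in all 6 libraries. Spearman's rho across the 19604 genes, which are not independent replicates, was 0.988 to 0.989 within control, 0.988 to 0.989 within non-targeting shRNA and 0.982 to 0.984 across the groups. Genes encoded in mitochondrial DNA held 21.3% to 21.8% of the summed FPKM in control. With the non-targeting shRNA they held 24.4%, 17.1% and 24.7% in replicates 1, 2 and 3. The gap of replicate 2 lay mostly in MT-ATP8, at 60110, 35700 and 60110 FPKM, and MT-CO2, at 35700, 9915 and 35700 FPKM. Ribosomal proteins held 19.5% to 20.2% in control and 16.6% to 18.2% with the non-targeting shRNA. The number of reads behind a library is unknown, and a listed 0 can be a failed estimate.

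Myeloid blood cells arise from stem and progenitor cells that express CD34, KIT and FLT3 and pass through granulocyte and monocyte progenitors under the control of transcription factors such as SPI1, CEBPA, RUNX1 and IRF8. Granulocytes store proteases and antimicrobial proteins in granules, which are made in sequence from the promyelocyte onward. Monocytes and macrophages carry Fc receptors, scavenger receptors and the receptor for M-CSF. Acute myeloid leukaemia cells usually halt at a point along these paths and keep a mixture of these programs, which is the basis of their description by surface antigens.

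A first property of the genes that were on in these cells was the composition of their promoters. Of the genes listed, 15017 were matched by symbol to 21186 RefSeq start sites (GRCh38.p14), and the 250 bases before each start were searched on both strands. CpG pairs, the dinucleotides at which vertebrate DNA is methylated, had a median of 4 in the windows of genes at 0 in all 6 libraries, 10 for genes above 0 and under 1 FPKM in control, 19 from 1 to under 10 FPKM, 21 from 10 to under 100 FPKM and 21 at 100 FPKM or more. The median over all windows was 17. Among list genes at 1 FPKM or more, the median was 7.5 in 110 windows of the lineage lists, 11 in 85 windows of the surface lists, 10 in 209 windows of the receptor lists and 21 in 345 windows of the metabolism lists. Expressed lineage, surface and receptor genes thus had windows with CpG counts nearer to those of unexpressed genes, while expressed metabolism genes had those of the expressed genes at large. In the 24 windows of expressed monocyte and macrophage genes the median was 2.

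The 3 windows that follow show this difference at like levels, with CG in capitals. They were chosen after the values were seen, each lies before the outermost RefSeq start site of its gene, and none overlaps an exon of GENCODE release 29. CSF3R encodes the G-CSF receptor, CLEC12A a lectin of myeloid cells and leukaemia cells, and ACLY the enzyme that makes cytosolic acetyl-CoA from citrate. In control the genes were at 84.03, 82.3 and 81.2 FPKM, 72.2, 63.8 and 63.5 FPKM and 84.4, 82.6 and 81.7 FPKM. CSF3R and ACLY overlapped in level in those libraries, and CLEC12A lay below both. The windows hold 3 CpG pairs at 43.2% GC for CSF3R (chr1:36483315-36483564, minus strand), 0 at 32.8% GC for CLEC12A (chr12:9971159-9971408, plus strand) and 23 at 73.6% GC for ACLY (chr17:41919023-41919272, minus strand). CSF3R and ACLY each have a second RefSeq window, nearer to the gene and overlapping exons. That of CSF3R (chr1:36482914-36483163) holds 8 CpG pairs at 64.4% GC, against 3 at 43.2% in the window shown, and is thus closer to ACLY. That of ACLY holds 26 at 73.6% GC.
CSF3R: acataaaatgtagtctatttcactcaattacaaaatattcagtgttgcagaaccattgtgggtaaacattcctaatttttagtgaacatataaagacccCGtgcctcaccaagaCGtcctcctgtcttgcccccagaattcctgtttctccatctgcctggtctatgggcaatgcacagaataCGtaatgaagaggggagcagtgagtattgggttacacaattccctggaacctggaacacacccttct
CLEC12A: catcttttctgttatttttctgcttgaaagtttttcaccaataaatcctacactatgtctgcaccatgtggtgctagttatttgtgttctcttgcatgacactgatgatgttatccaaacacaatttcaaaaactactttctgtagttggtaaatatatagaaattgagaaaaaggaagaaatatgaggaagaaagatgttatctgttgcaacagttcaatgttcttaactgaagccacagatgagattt
ACLY: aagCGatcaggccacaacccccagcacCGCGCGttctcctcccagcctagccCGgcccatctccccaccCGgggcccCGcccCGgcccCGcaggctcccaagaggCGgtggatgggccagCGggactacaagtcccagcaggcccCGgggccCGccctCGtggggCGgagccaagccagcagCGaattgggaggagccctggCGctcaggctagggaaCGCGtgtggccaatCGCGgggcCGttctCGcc

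Of 3 short motifs described here, CCGGAAGT was more frequent at higher levels, TATAAA was most frequent in genes at 0, and GAGGAAGT showed no order. CCGGAAGT, a sequence bound by ETS factors, was found in 0.652% of the windows of genes at 0 in all 6 libraries, 1.34% under 1 FPKM, 5.17% from 1 to under 10 FPKM, 7.71% from 10 to under 100 FPKM and 8.55% at 100 FPKM or more, against 4.49% of all windows. In the 39 windows of expressed nuclear respiratory chain subunits it was in 15.4%, and in those of expressed monocyte and macrophage genes in 0 of 24. TATAAA, the core of the TATA box, was in 20.0% of the windows of genes at 0 in all 6 libraries, 5.99% from 1 to under 10 FPKM and 8.05% at 100 FPKM or more, against 8.85% of all. GAGGAAGT, the form of the ETS sequence that the myeloid factor SPI1 prefers, was in 2.25% of all windows and in 1.61% to 2.55% of the 5 level classes, with no order by level. Among expressed genes it was in 2 of 24 windows of the monocyte and macrophage list, 3 of 15 of the integrin and adhesion list, 4.71% of 85 surface windows and 4.31% of 209 receptor windows, and in 0 of 56 windows of myeloid transcription factors and 0 of 9 of granule genes. It was also in 5.13% of 39 expressed respiratory chain windows, 2.32% of 345 expressed metabolism windows and 1.82% of 110 expressed lineage windows. Among genes under 1 FPKM in control it was in 2 of 11 windows of granule genes. In the same class it was in 1 of 10 of the integrin and adhesion list and 0 of 11 of the monocyte and macrophage list. The sequence was thus not particular to expressed myeloid genes. TATAAA was in 6 of the 24 monocyte and macrophage windows. GAGGAAGT and CCGGAAGT share GGAAGT and differ in their first bases, so that the same 8 bases cannot match both, and a match describes letters and not a bound site.

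A window with each of these sequences is shown, chosen after the values were seen, with the match in capitals as it reads on the gene's strand. MTR encodes methionine synthase, which joins the folate and methionine cycles, and was at 17.5, 17.4 and 16.5 FPKM in control. Its window (chr1:236795031-236795280, plus strand) reads CCGGAAGT as ACTTCCGG, 182 bases before the start. TYROBP encodes the signalling adaptor of several activating receptors of monocytes and NK cells and was at 13.1, 12.5 and 13.9 FPKM. Its window (chr19:35908296-35908545, minus strand) reads GAGGAAGT as ACTTCCTC, 4 bases before the start.
MTR: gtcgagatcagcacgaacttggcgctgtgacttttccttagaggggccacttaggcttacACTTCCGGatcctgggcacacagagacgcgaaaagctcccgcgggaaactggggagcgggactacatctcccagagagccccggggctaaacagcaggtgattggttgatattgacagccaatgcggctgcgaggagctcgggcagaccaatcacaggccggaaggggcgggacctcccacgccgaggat
TYROBP: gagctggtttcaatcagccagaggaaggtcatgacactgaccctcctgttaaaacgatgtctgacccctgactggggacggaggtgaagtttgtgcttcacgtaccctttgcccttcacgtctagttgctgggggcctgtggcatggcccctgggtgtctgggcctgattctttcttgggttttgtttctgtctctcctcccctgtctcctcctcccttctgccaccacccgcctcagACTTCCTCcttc

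Some monocyte and macrophage genes were among the highest of the cells and others were near the floor. Of 28 listed genes, 18 reached 1 FPKM in control and 16 with the non-targeting shRNA, and 10 and 8 reached 10 FPKM. The median percentile of the list was 53.8 in control and 47.8 with the non-targeting shRNA. LYZ, the secreted enzyme lysozyme, was at 571, 589 and 543 FPKM in control, percentile 99.3, and at 547, 547 and 530.4 FPKM with the non-targeting shRNA, percentile 99.3. It was the highest of the list in each library. MNDA, a nuclear protein of myelomonocytic cells, was at 187, 179 and 183 FPKM in control, and VCAN, a proteoglycan of monocytes, at 111, 92.4 and 94.04 FPKM. Both ranked above percentile 96 in control and above 93 with the non-targeting shRNA.

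The scavenger receptor family protein CD68, of lysosomes, was at 68.3, 78.7 and 87.3 FPKM in control and at 59.6, 61.7 and 62.9 FPKM with the non-targeting shRNA. FCGR1A, the high-affinity IgG receptor, was at 48.99, 55.2 and 56.6 FPKM and at 28.9, 26.7 and 31.2 FPKM, and its percentile went from 92.8 to 84.7. CSF1R, the receptor for M-CSF, was at 40.02, 41.6 and 41.8 FPKM and at 48.2, 48.6 and 50.99 FPKM, and it ranked near percentile 90.5 and 91.2. The percentiles of the 3 libraries did not overlap between the groups for any of these genes, with CD68 and FCGR1A lower and CSF1R slightly higher with the non-targeting shRNA. Such a separation was common: of the 11057 genes at 1 FPKM or more in either group, 62.2% did not overlap, with a median absolute difference of 1.51 points, which that of CSF1R did not reach. An absence of overlap is therefore read here and for the genes that follow only as a description, beside the size of the difference. CCR2, the chemokine receptor that brings monocytes out of the marrow, was at 34.3, 33.9 and 31.3 FPKM in control. The lysosomal protease CTSS was at 27.2, 32.3 and 32.1 FPKM in control, percentile 87, and at percentile 91.6 with the non-targeting shRNA.

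CD14, the LPS co-receptor that defines classical monocytes, was at 0.994, 0.973 and 1.04 FPKM in control and at 0.357, 0.399 and 0.346 FPKM with the non-targeting shRNA. Its percentile was 45.1 and 39.8, near or under the limit of 1 FPKM in all 6 libraries. Some other genes of the list were lower. The haemoglobin scavenger receptor CD163, the mannose receptor MRC1 and the activating receptor CD300E were each under 0.1 FPKM in all 6 libraries. They were singled out after their values were seen, from the 4 of 28 listed genes with a mean under 0.1 FPKM in control. CD68 and CSF1R, of the same list, were high, as given above. Within the expressed part of the list, 5 of 17 pairs of neighbours in level overlapped in control, and 11 of the 17 kept their order with the non-targeting shRNA.

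Of the granule genes, the highest were not the proteases of the promyelocyte. Of 24 listed genes, 10 reached 1 FPKM in control and 9 with the non-targeting shRNA, 7 and 6 were at 0 in every library, and the median percentile was 34.5 and 35.6. SRGN, the proteoglycan that packs granule contents, was at 1912, 1753 and 1681 FPKM in control and at 844, 856 and 830 FPKM with the non-targeting shRNA. RNASE2, an eosinophil and monocyte ribonuclease, was at 167, 183 and 184 FPKM in control, and LYST, a regulator of lysosome-related organelles, at 46.9, 46.2 and 41.99 FPKM. These 3 were the highest of the list in control.

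CTSG, cathepsin G, was at 2.86, 3.496 and 3.39 FPKM in control, percentile 53.4, and at 12.4, 11.2 and 12.2 FPKM with the non-targeting shRNA, percentile 69.2. PRSS57, a serine protease of azurophil granules, was at 13.9, 14.5 and 14.1 FPKM in control and at 55.6, 60.3 and 58.9 FPKM with the non-targeting shRNA, percentiles 74.3 and 92.7. MPO, the peroxidase by which myeloid leukaemia cells are often recognised, was at 0.855, 1.09 and 1.07 FPKM in control and at 2.33, 2.35 and 2.63 FPKM with the non-targeting shRNA. For all 3 genes each non-targeting shRNA library ranked above each control library. ELANE, neutrophil elastase, was at 0, 0.0291 and 0.0696 FPKM in control and at 0.305, 0.2799 and 0.473 FPKM with the non-targeting shRNA, and PRTN3, proteinase 3, at 0.289, 0.372 and 0.4296 FPKM and 0.891, 1.05 and 0.906 FPKM. AZU1, azurocidin, ranked alike in both groups, at percentile 48.5 and 48.2. Of the secondary and tertiary granule genes, LTF, lactoferrin, was listed at 0 in all 6 libraries, and CAMP, cathelicidin, at 0 in 4 of them and under 0.1 FPKM in the others.

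**Figure D1:**
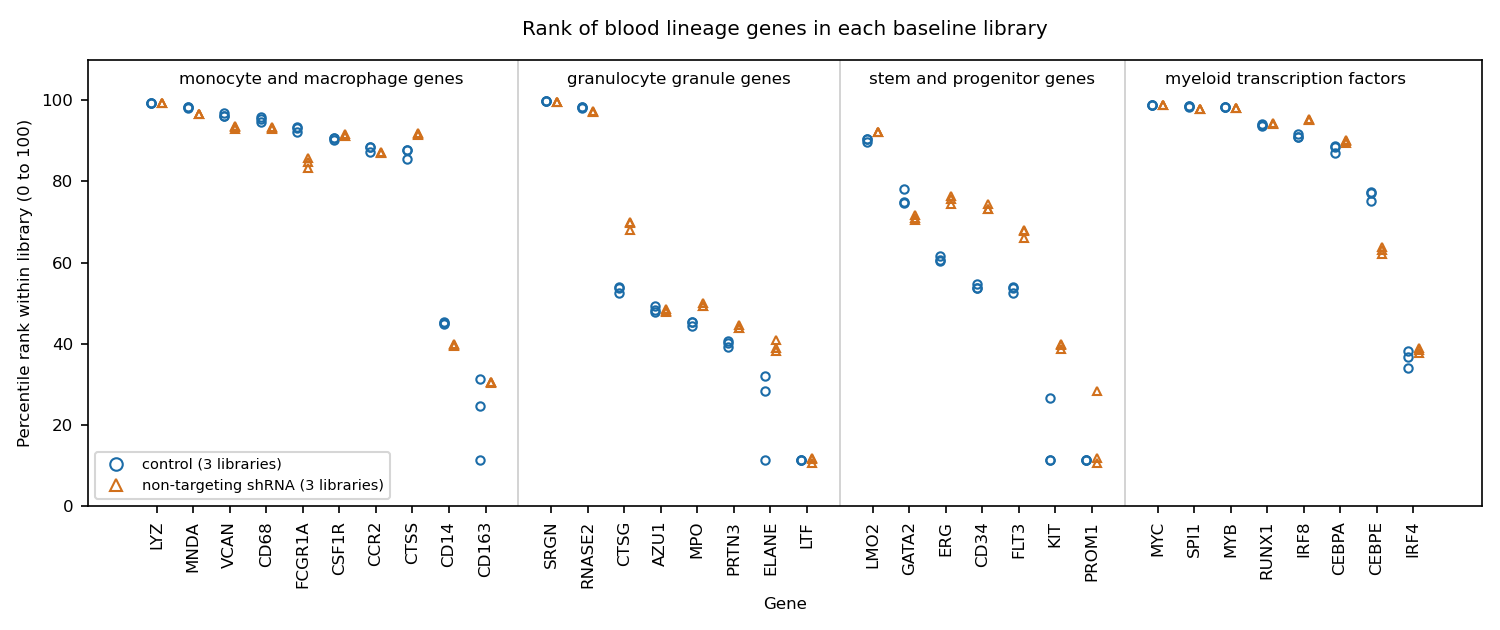
Percentile rank within each library (vertical axis, 0 to 100) of 33 lineage genes, with circles for the 3 control and triangles for the 3 non-targeting shRNA libraries. LYZ, SRGN, MYC, SPI1 and MYB lie above percentile 97 in all 6 libraries, CD34, FLT3, ERG and CTSG rank higher in all 3 non-targeting shRNA libraries than in control, and genes listed at 0 share a rank near percentile 11.4.

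Stem and progenitor genes were divided between expressed genes and genes near the floor. Of 22 listed genes, 11 reached 1 FPKM in each group, a share near the 54.9% and 55.7% of all genes. In each group 10 were under 0.1 FPKM and none reached 100 FPKM. The median percentile was 41.8 in control and 43.0 with the non-targeting shRNA. The median rank difference of the 11 expressed genes was 3.8 percentile points upward with the non-targeting shRNA. CD34, the sialomucin of stem and progenitor cells, was at 3.32, 3.71 and 3.39 FPKM in control and at 15.98, 14.99 and 15.03 FPKM with the non-targeting shRNA, and its percentile went from 54.1 to 73.6. FLT3, the receptor kinase of early progenitors, was at 3.37, 2.93 and 3.33 FPKM and 10.9, 9.996 and 11.1 FPKM, percentiles 53.3 and 67.3. ERG, an ETS factor of stem cells, was at 6.06, 6.04 and 6.54 FPKM and 15.9, 17.1 and 17.7 FPKM, percentiles 60.8 and 75.4. The 3 libraries of one group lay above the other's for each of these genes.

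LMO2, an adaptor of stem cell transcription complexes, was the highest of the list, at 38.1, 40.7 and 40.7 FPKM in control and 54.9, 54.5 and 54.5 FPKM with the non-targeting shRNA. MSI2, an RNA-binding protein of stem cells, was at 25.6, 21.8 and 22.2 FPKM in control, and SOCS2, a feedback inhibitor of cytokine signals, at 15.6, 15.8 and 16.6 FPKM. GATA2, a factor of stem, mast and megakaryocyte precursors, was at 14.5, 14.4 and 17.6 FPKM in control, percentile 75.9, and unlike CD34, FLT3 and ERG it ranked lower with the non-targeting shRNA, at 71.04. KIT, the stem cell factor receptor, was at 0.0153, 0 and 0 FPKM in control and at 0.346, 0.303 and 0.375 FPKM with the non-targeting shRNA, and PROM1, which encodes CD133, was listed at 0 in 5 of 6 libraries. Neither gene reached 1 FPKM in any library.

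Myeloid transcription factors were the highest of the lineage lists. Of 37 listed genes, 34 reached 1 FPKM in control and 33 with the non-targeting shRNA, and the median percentile was 82.3 and 83.3. MYC, which drives growth, was at 287, 295 and 281 FPKM in control and 258, 264 and 262 FPKM with the non-targeting shRNA. SPI1, the master factor of myeloid cells, was at 192, 221 and 212 FPKM and 158, 162 and 158 FPKM, and MYB, which keeps progenitors proliferating, at 178, 184 and 180 FPKM and 173, 170.3 and 169.7 FPKM. These 3 held the first places of the list in control, all above percentile 98 there.

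RUNX1 was at 61.7, 63.3 and 59.1 FPKM in control, percentile 93.9, and at percentile 94.2 with the non-targeting shRNA. IRF8, which directs the monocyte and dendritic branch, was at 42.3, 46.2 and 42.6 FPKM and 83.2, 86.8 and 81.2 FPKM, percentiles 91.1 and 95.2. CEBPA, the factor of granulocyte and monocyte commitment, was at 30.2, 34.2 and 35.02 FPKM in control, percentile 88.04, and at 89.8 with the non-targeting shRNA. FLI1, an ETS factor, was at 108, 113 and 108 FPKM in control, and its ranks overlapped between the groups. CEBPB and CEBPE, factors of later granulocytes and macrophages, were both lower in rank with the non-targeting shRNA: CEBPB at percentiles 88.2 and 74.9, CEBPE at 76.5 and 63.02. CEBPB, which is outside the rule for named genes, was added after its values were seen. GFI1B, a transcriptional repressor that acts within the erythroid and platelet lineages, was listed at 0 in all 6 libraries. It was also named after its values were seen. ZEB2, a transcriptional repressor that acts within monocyte and dendritic cells, was at 82.6, 78.6 and 72.9 FPKM in control. In the list, 15 of 33 neighbouring pairs overlapped in level in control and 20 kept their order with the non-targeting shRNA.

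HOX genes set position along the body axis, and those of the HOXA and HOXB clusters are active in blood stem cells and in many leukaemias, together with the TALE partners MEIS1 and PBX. Of 24 listed genes, 11 reached 1 FPKM in each group. HOXA9 was the highest HOX gene, at 22.6, 21.6 and 23.1 FPKM in control and 25.6, 30.2 and 26.7 FPKM with the non-targeting shRNA, followed by HOXA10 at 8.4, 8.797 and 9.18 FPKM and 11.97, 11.8 and 11.2 FPKM. In HOXB, the members HOXB3, HOXB4 and HOXB6 lay side by side at means of 6.63 ± 0.255, 6.14 ± 0.353 and 6.29 ± 0.595 FPKM (SD, n = 3) in control. MEIS1 was at 1.26, 1.27 and 1.62 FPKM in control and its ranks overlapped between the groups, and PBX2 was at 23.9, 24.7 and 25.2 FPKM. The 5 genes at 0 in every control library included HOXB8, HOXB9 and HOXB13, singled out after their values were seen.

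Markers of other cell types were near the floor with a few exceptions. In control, 5 of 17 dendritic cell markers, 3 of 18 markers of T or NK cells, 3 of 13 platelet lineage markers and 2 of 17 erythroid markers reached 1 FPKM. The same level was reached by 2 of 15 markers of mast cells, basophils or eosinophils, 1 of 13 B cell markers and 1 of 16 epithelial, fibroblast and endothelial markers. With the non-targeting shRNA the counts in the same order were 6, 4, 3, 2, 0, 1 and 1. The summed level of the B cell list was 4.23 to 5.07 FPKM in control and 3.34 to 4.18 FPKM with the non-targeting shRNA. Of the defining markers, the B cell antigen MS4A1, the platelet proteins PF4 and GP9 and the dendritic antigen CD1C were listed at 0 in all 6 libraries, while PAX5, GATA1, CD3E and CDH5 were under 0.1 FPKM in each.

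The exceptions were single genes. TFRC, the transferrin receptor, which dividing cells of any type use, was at 45.7, 42.1 and 39.97 FPKM in control, and EPOR, the erythropoietin receptor, at 3.45, 3.47 and 3.62 FPKM. CD79A, the B cell receptor subunit, was at 3.89, 4.34 and 4.55 FPKM in control and 3.01, 2.67 and 3.39 FPKM with the non-targeting shRNA. NKG7, a granule membrane protein of killer cells, was at 34.7, 34.7 and 32.6 FPKM in control, percentile 88.4, and at 4.74, 4.82 and 5.45 FPKM with the non-targeting shRNA, percentile 56.3. NCAM1, the adhesion molecule CD56, was at 10.9, 12.4 and 12.3 FPKM and 14.8, 12.8 and 12.2 FPKM, with ranks that overlapped between the groups. FSCN1, an actin bundler of mature dendritic cells, was at 65.8, 67.7 and 65.9 FPKM in control, TCF4, a factor of plasmacytoid dendritic cells, at 18.9, 16.2 and 17.7 FPKM, and CLEC4C, CLEC9A and CD1C, the antigens that define dendritic cell types, were under 0.15 FPKM in all 6 libraries. VIM, the intermediate filament of all mesenchymal and blood cells, was at 179.6, 221 and 185 FPKM and was the 1 expressed member of its list. Whether all cells of the line or only a part of them carried these transcripts was not tested.

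**Figure D2:**
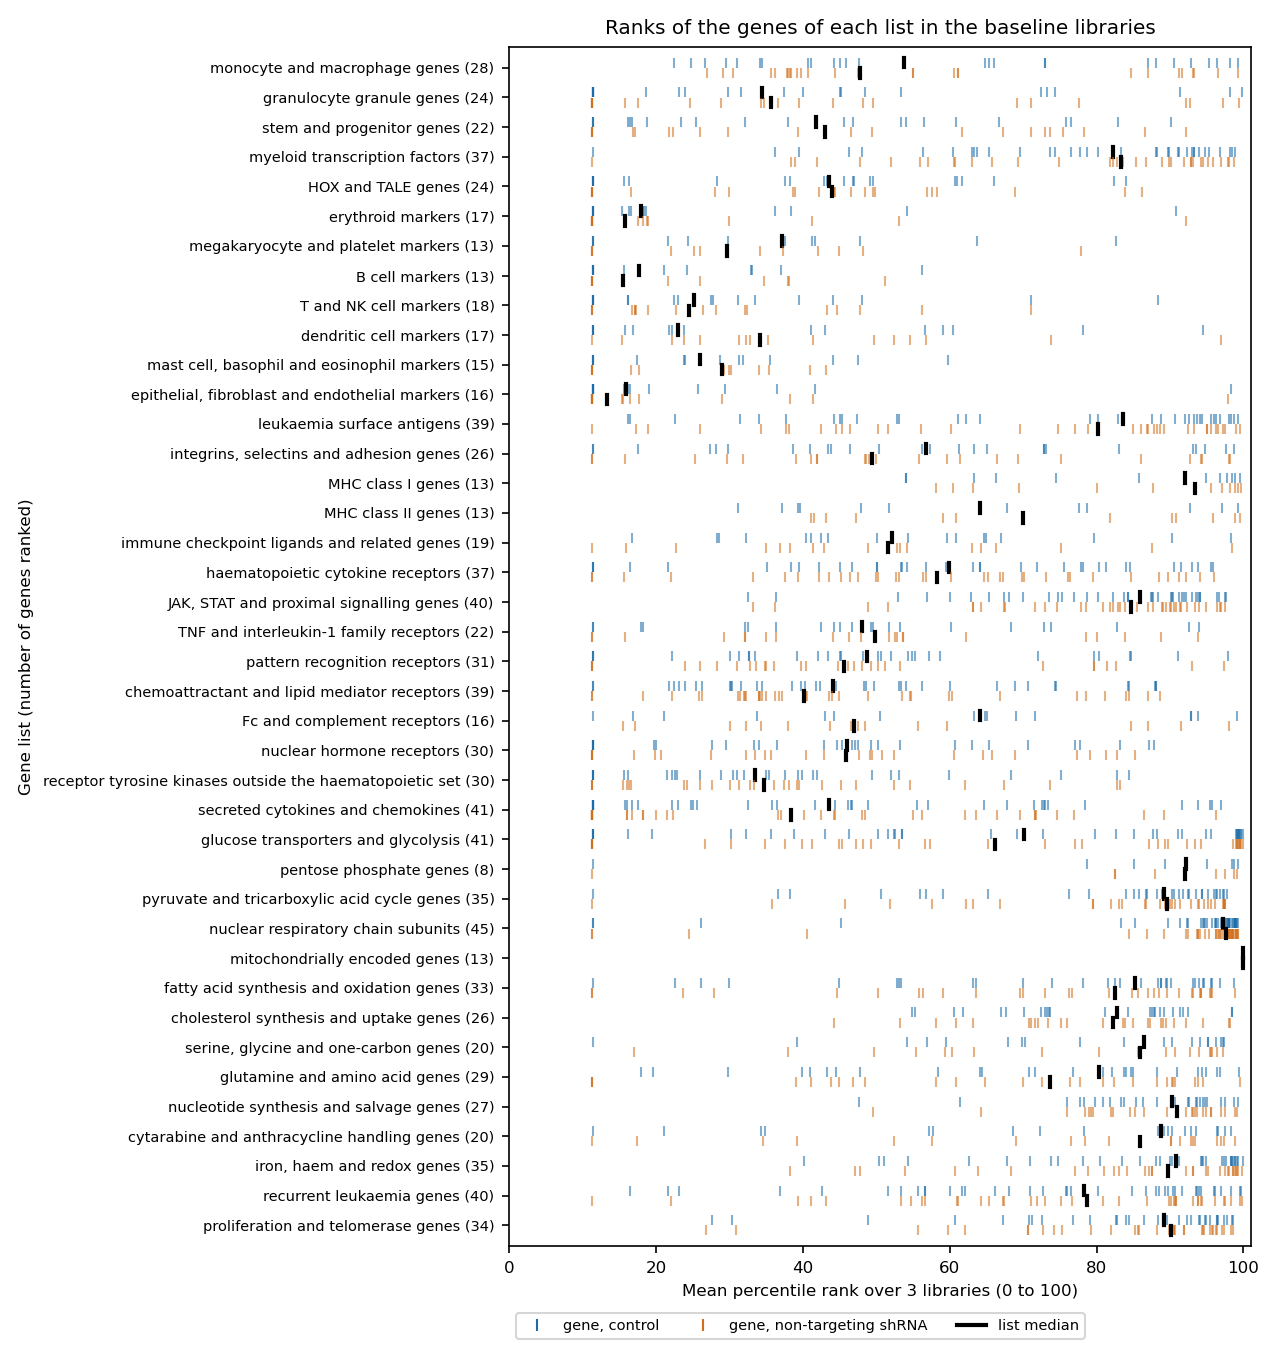
Mean percentile rank over 3 libraries (horizontal axis, 0 to 100) of each gene of the 40 lists, with 1 tick per gene, control above and non-targeting shRNA below in each row and the list median in black. The medians run from 15.9 for epithelial, fibroblast and endothelial markers to 97.2 for nuclear respiratory chain subunits in control, with the mitochondrially encoded genes above them, and the marker lists of other cell types lie on the left.

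Transcripts of the surface antigens by which acute myeloid leukaemia is typed were mostly high, with that of CD13 among the exceptions. Only RNA was measured, so the amount of protein at the surface is unknown. Of 39 listed surface antigens, 32 reached 1 FPKM in control and 31 with the non-targeting shRNA, with median percentiles of 83.6 and 80.2. In each group 4 were under 0.1 FPKM. CD33, the sialic acid receptor targeted by antibody drugs, was at 61.8, 64.5 and 63.9 FPKM in control and 63.03, 61.6 and 62.2 FPKM with the non-targeting shRNA. CLEC12A, whose CpG-free promoter window is shown above, was at 72.2, 63.8 and 63.5 FPKM and 42.4, 40.4 and 39.6 FPKM, percentiles 94.4 and 89.2. Both were above percentile 89 in each group, and both ranked lower with the non-targeting shRNA in every library, CD33 by less than 1 point.

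CD44, the hyaluronan receptor, was at 258, 285 and 254 FPKM in control, PTPRC, the leukocyte phosphatase CD45, at 89.7, 104.6 and 95.1 FPKM, and CD47, the signal that inhibits phagocytosis, at 31.2, 32.1 and 31.5 FPKM. CD38, an ectoenzyme of committed progenitors, was at 25.2, 25.3 and 21.9 FPKM, and IL3RA, the interleukin-3 receptor subunit CD123, at 8.03, 7.14 and 8.31 FPKM. IL3RA was thus the lowest of the expressed antigens fixed as markers, at percentile 64.1. IL3RA is a pseudoautosomal gene, and Y copies of such genes were left out here. Its level would be understated if the authors' counting split reads between the copies, so this place is uncertain. ANPEP, the peptidase CD13, which many myeloid leukaemias carry, was at 0.01402, 0.1501 and 0.0692 FPKM in control and at no more than 0.0345 FPKM with the non-targeting shRNA. The inhibitory collagen receptor LAIR1 was at 161, 167 and 156 FPKM and the tetraspanin CD63 at 182, 185 and 189 FPKM in control.

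Of 26 integrins, selectins and other adhesion genes, 16 reached 1 FPKM in each group. ITGB2, the beta chain of the leukocyte integrins, was at 264, 276 and 266 FPKM in control, ITGA4, the VLA-4 alpha chain that binds VCAM1 in marrow, at 147, 137 and 134 FPKM, and ITGAL, the LFA-1 alpha chain, at 53.2, 57.2 and 56.8 FPKM. The alpha chains of the myeloid integrins were lower: ITGAM, CD11b, at 8.54, 8.26 and 8.15 FPKM and ITGAX, CD11c, at 7.84, 7.23 and 7.196 FPKM. ITGAX was at 1.87, 2.24 and 2.14 FPKM with the non-targeting shRNA, with its percentile at 48.5 against 63.4 in control and no overlap. The selectin ligand SELPLG was at 56.5, 60.8 and 58.4 FPKM in control.

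All 13 MHC class I genes listed reached 1 FPKM in both groups, with median percentiles of 92.0 and 93.4. B2M, the shared light chain, was at 1182, 1173 and 1152 FPKM in control, and the heavy chains HLA-B and HLA-C at 299 ± 5.95 and 214 ± 3.34 FPKM (SD, n = 3). The order B2M, HLA-B, HLA-C held in each of the 6 libraries. Reads of the near-identical heavy chain genes could be split between them by the authors' counting, so their separate levels are uncertain.

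Of 13 MHC class II genes, which present peptides to helper T cells, 9 reached 1 FPKM in control and 10 with the non-targeting shRNA, and among the 10 genes expressed in either group the median rank difference was 8.68 percentile points upward. CD74, the invariant chain, was at 524, 503 and 492 FPKM in control and 991, 1000 and 1035 FPKM with the non-targeting shRNA, already at percentile 99.2. HLA-DRA was at 124, 119.8 and 117 FPKM and 281, 276 and 277 FPKM, percentiles 97.1 and 98.8. CIITA, the coactivator that turns class II genes on, was at 7.53, 8.07 and 7.87 FPKM and 12.5, 12.5 and 12.1 FPKM, percentiles 64.2 and 69.9. For each of these genes every non-targeting shRNA library ranked above every control library. HLA-DQA1 was at 0.359, 0.167 and 0.138 FPKM in control and 2.099, 1.61 and 1.38 FPKM with the non-targeting shRNA. Of the alpha chains, HLA-DRA made up 69.4% ± 0.565 and HLA-DPA1 30.5% ± 0.542 of the summed FPKM in control (SD, n = 3), and 74.1% ± 0.378 and 25.5% ± 0.305 with the non-targeting shRNA.

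Ligands of immune checkpoints differed by gene. LGALS9, galectin-9, was at 177, 194 and 187 FPKM in control, and SIRPA, the receptor of CD47, at 38.5, 42.7 and 40.5 FPKM. CD274, which encodes PD-L1, was at 0.0678, 0.0819 and 0.0591 FPKM in control, and the costimulator CD86 at 0.3798, 0.485 and 0.478 FPKM. Neither of these last genes reached 1 FPKM in any of the 6 libraries. Of the 19 listed genes, 11 reached 1 FPKM in each group.

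Among haematopoietic cytokine receptors, 28 of 37 reached 1 FPKM in both groups. The receptor of the cytokine in the medium has a ligand-binding chain, CSF2RA, and a signalling chain, CSF2RB, which is shared with the interleukin-3 and interleukin-5 receptors. CSF2RB was at 14.8, 15.6 and 15.2 FPKM in control and 9.31, 9.71 and 9.396 FPKM with the non-targeting shRNA, percentiles 75.6 and 65.2, and CSF2RA at 2.04, 2.41 and 2.19 FPKM and 2.27, 2.87 and 2.61 FPKM. CSF2RA kept a rank near percentile 50.1 in both groups, while CSF2RB ranked lower in every non-targeting shRNA library. Like IL3RA, CSF2RA is a pseudoautosomal gene whose reads could be split between an X and a Y copy, so its level is uncertain.

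Several other receptors of the family were listed higher than those of GM-CSF. IL6R was at 83.7, 90.8 and 85.2 FPKM in control and CSF3R, whose promoter window is shown above, at 84.03, 82.3 and 81.2 FPKM, and their values overlapped. With the non-targeting shRNA CSF3R was at 55.5, 54.9 and 53.9 FPKM, percentile 92.2 against 95.6 in control, while IL6R kept its rank. IL17RA, the interleukin-17 receptor, was at 59.98, 61.5 and 58.7 FPKM, the common gamma chain IL2RG at 50.9, 58.02 and 55.96 FPKM and the interferon-gamma receptor IFNGR1 at 47.5, 45.4 and 43.7 FPKM in control. IL7R, the interleukin-7 receptor of lymphoid cells, was at 26.9, 23.7 and 26.6 FPKM in control, percentile 84.6, and at 3.58, 3.35 and 3.78 FPKM with the non-targeting shRNA, percentile 52.7. Of the receptors fixed as markers, FLT3, CSF2RA and KIT were the lowest in control, in that order.

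Downstream of these receptors, 38 of 40 JAK, STAT and proximal signalling genes reached 1 FPKM in both groups, with median percentiles of 85.9 and 84.7. PTPN6, the phosphatase SHP-1, was at 123, 152 and 152 FPKM in control, the adaptor GRB2 at 129, 131 and 135 FPKM and the lipid phosphatase INPP5D, SHIP1, at 99.05, 100.3 and 94.98 FPKM. The SRC family kinase LYN was at 103.8, 110.1 and 108 FPKM and SYK, the kinase of Fc receptor signals, at 62.9, 62.8 and 61.5 FPKM. STAT5A, the main transcription factor of the GM-CSF signal, was at 19.04, 18.03 and 17.4 FPKM in control, NRAS at 20.8, 19.6 and 18.4 FPKM and JAK2, the kinase bound to CSF2RB, at 5.94, 5.995 and 5.56 FPKM. JAK2 was the lowest of the markers fixed for this list, at percentile 59.99 in control and 64.2 with the non-targeting shRNA. Neighbours in the list overlapped in level in 20 of 37 pairs in control.

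Receptors of the tumour necrosis factor and interleukin-1 families reached 1 FPKM in 13 of 22 cases in each group, and 12 of them did so in both. TNFRSF10B, the TRAIL receptor DR5, was at 63.4, 62.4 and 59.9 FPKM in control, TNFRSF1A, the first TNF receptor, at 48.4, 55.6 and 52.3 FPKM and TNFRSF1B, the second, at 21.9, 23.5 and 23.4 FPKM. FAS was at 6.16, 6.13 and 5.39 FPKM. IL1R2, the decoy receptor of interleukin-1, was listed at 0 in 2 of 3 control libraries.

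Pattern recognition receptors, which sense microbial molecules and stray nucleic acids, reached 1 FPKM in 19 of 31 cases in control and 17 with the non-targeting shRNA. TMEM173, which encodes the DNA sensing adaptor STING, was at 155, 166 and 159.9 FPKM in control. The LPS receptor TLR4 was at 20.96, 19.4 and 19.3 FPKM and its relative CD180 at 24.3, 26.1 and 26.3 FPKM, while TLR2 was at 1.05, 0.984 and 0.997 FPKM. NLRP3, an inflammasome sensor, was at 25.2, 26.4 and 25.8 FPKM, and CLEC7A, the glucan receptor, at 5.86, 4.74 and 5.24 FPKM in control and 1.14, 1.103 and 1.61 FPKM with the non-targeting shRNA. CLEC7A and TLR4 ranked lower in every non-targeting shRNA library.

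Of 39 receptors of chemoattractants and lipid mediators, 18 reached 1 FPKM in control and 15 with the non-targeting shRNA. PTAFR, the receptor of platelet activating factor, CCR2 and S1PR4, a sphingosine phosphate receptor, lay at 33.2 ± 0.276, 33.2 ± 1.64 and 32.8 ± 1.54 FPKM (SD, n = 3) in control and could not be ordered by level. CXCR2, the interleukin-8 receptor, was at 24.97, 25.7 and 24.4 FPKM. CXCR4, the marrow homing receptor, was at 10.1, 8.53 and 8.58 FPKM in control and 3.86, 3.59 and 4.15 FPKM with the non-targeting shRNA, percentiles 66.5 and 53.5. FPR1, the formyl peptide receptor, was at 2.98, 3.35 and 3.098 FPKM and 0.413, 0.371 and 0.467 FPKM, and the complement receptor C5AR1 under 0.1 FPKM in every library. CXCR4 and FPR1 ranked lower with the non-targeting shRNA without overlap.

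Fc and complement receptors ranked lower with the non-targeting shRNA as a list, with a median difference of -7.46 percentile points among the 10 of 16 genes expressed in either group and median percentiles of 64.1 and 47.0. FCGR2A, the IgG receptor CD32, was at 411, 420.3 and 427 FPKM in control and 170.3, 172 and 171 FPKM with the non-targeting shRNA, percentiles 99.2 and 98.03. FCER2, the low-affinity IgE receptor, was at 61.9, 59.6 and 60.7 FPKM in control, and FCGRT, which recycles IgG, at 55.03, 52.1 and 54.9 FPKM. CR1, a complement receptor, was at 13.97, 11.4 and 11.2 FPKM and 1.42, 1.504 and 1.55 FPKM, percentiles 71.6 and 46.5. FCER1G, the common signalling chain of Fc receptors, was at 0.899, 0.619 and 1.11 FPKM in control and 0.285, 0.174 and 0.318 FPKM with the non-targeting shRNA. The chain was thus near or under 1 FPKM in all 6 libraries, while FCGR1A, which signals through it, was above 26 FPKM in each.

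Of 30 nuclear hormone receptors, 16 reached 1 FPKM in each group, a share near the 54.9% and 55.7% of all genes. RXRA was at 29.5, 31.5 and 30.9 FPKM in control, RARA, the retinoic acid receptor, at 15.4, 18.5 and 17.8 FPKM, NR3C1, the glucocorticoid receptor, at 12.1, 11.5 and 11.04 FPKM and VDR, the vitamin D receptor, at 7.67, 8.97 and 8.66 FPKM. Of 30 receptor tyrosine kinases outside the haematopoietic set, 8 reached 1 FPKM in control and 9 with the non-targeting shRNA. FGFR1 was at 23.9, 26.9 and 25.6 FPKM, TYRO3 at 21.3, 23.7 and 23.96 FPKM and IGF1R at 16.9, 14.2 and 13.7 FPKM in control. Of the TAM family, MERTK was at 3.44, 3.09 and 2.87 FPKM and AXL under 0.1 FPKM in every library.

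Secreted cytokines and chemokines reached 1 FPKM in 19 of 41 cases in control and 17 with the non-targeting shRNA. TGFB1 was at 103, 122 and 118 FPKM in control and 104.4, 106 and 107 FPKM with the non-targeting shRNA. CCL2, the ligand of CCR2, was at 90.6, 76.9 and 84.2 FPKM and 12.3, 14.2 and 14.7 FPKM, percentiles 95.7 and 71.6, and CXCL8, interleukin-8, at 70.3, 56.4 and 58.2 FPKM and 7.99, 8.31 and 9.47 FPKM, percentiles 93.9 and 63.6. IL1RN, the antagonist of interleukin-1, was at 79.3, 74.5 and 83.9 FPKM in control, and IL1B at 3.39, 3.74 and 5.03 FPKM. CCL2, CXCL8, IL1RN and IL1B all ranked lower in each non-targeting shRNA library, beside the 62.2% of expressed genes that did not overlap, and TGFB1 ranked lower by less than 1 point, under the median difference of all these genes. CSF2, which encodes GM-CSF itself, IL6 and TNF were listed at 0 in all 6 libraries, so no transcript of the cytokine supplied in the medium was listed.

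Metabolism genes were mostly high. In glycolysis, which splits glucose to pyruvate, 30 of 41 listed genes reached 1 FPKM in each group. GAPDH was at 4585, 4746 and 4746 FPKM in control, place 13 of all genes, ENO1, enolase, at 1669, 1737 and 1647 FPKM and ALDOA, aldolase, at 1418, 1431 and 1377 FPKM. Lactate dehydrogenase was made of both chains: LDHA was at 953, 940 and 928 FPKM and LDHB at 709, 730.2 and 709 FPKM in control. LDHA held 56.8% ± 0.534 of the summed FPKM of the family in control (SD, n = 3) and 59.6% ± 0.299 with the non-targeting shRNA. PKM, pyruvate kinase, was at 682, 709 and 682 FPKM, while the liver and red cell form PKLR was at 0.0162 FPKM in 1 library and at 0 in the other 5.

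The first step of glycolysis was shared by several genes. HK1 was at 44.7, 44.8 and 42.1 FPKM in control, HK2, the inducible form, at 28.6, 25.4 and 25.9 FPKM, and HK3, the form of myeloid cells, at 3.498, 3.12 and 3.19 FPKM. HK1 held 59.5% ± 1.46, HK2 36.1% ± 1.31 and HK3 4.43% ± 0.155 of the hexokinase sum in control (SD, n = 3). The glucose transporter SLC2A1 was at 30.1, 32.6 and 34.1 FPKM and SLC2A3 at 24.6, 20.97 and 22.8 FPKM, or 44.4% ± 3.14 and 31.3% ± 1.83 of the transporters listed. With the non-targeting shRNA these shares were 50.3% ± 0.871 and 22.6% ± 0.503. For phosphofructokinase, PFKP held 59.0% ± 1.15 and PFKL 38.5% ± 1.27 in control, and for lactate export SLC16A3 held 64.6% ± 1.74 and SLC16A1 26.5% ± 0.745. These last 4 genes and ACSL1 below were named after their values were seen.

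**Figure D3:**
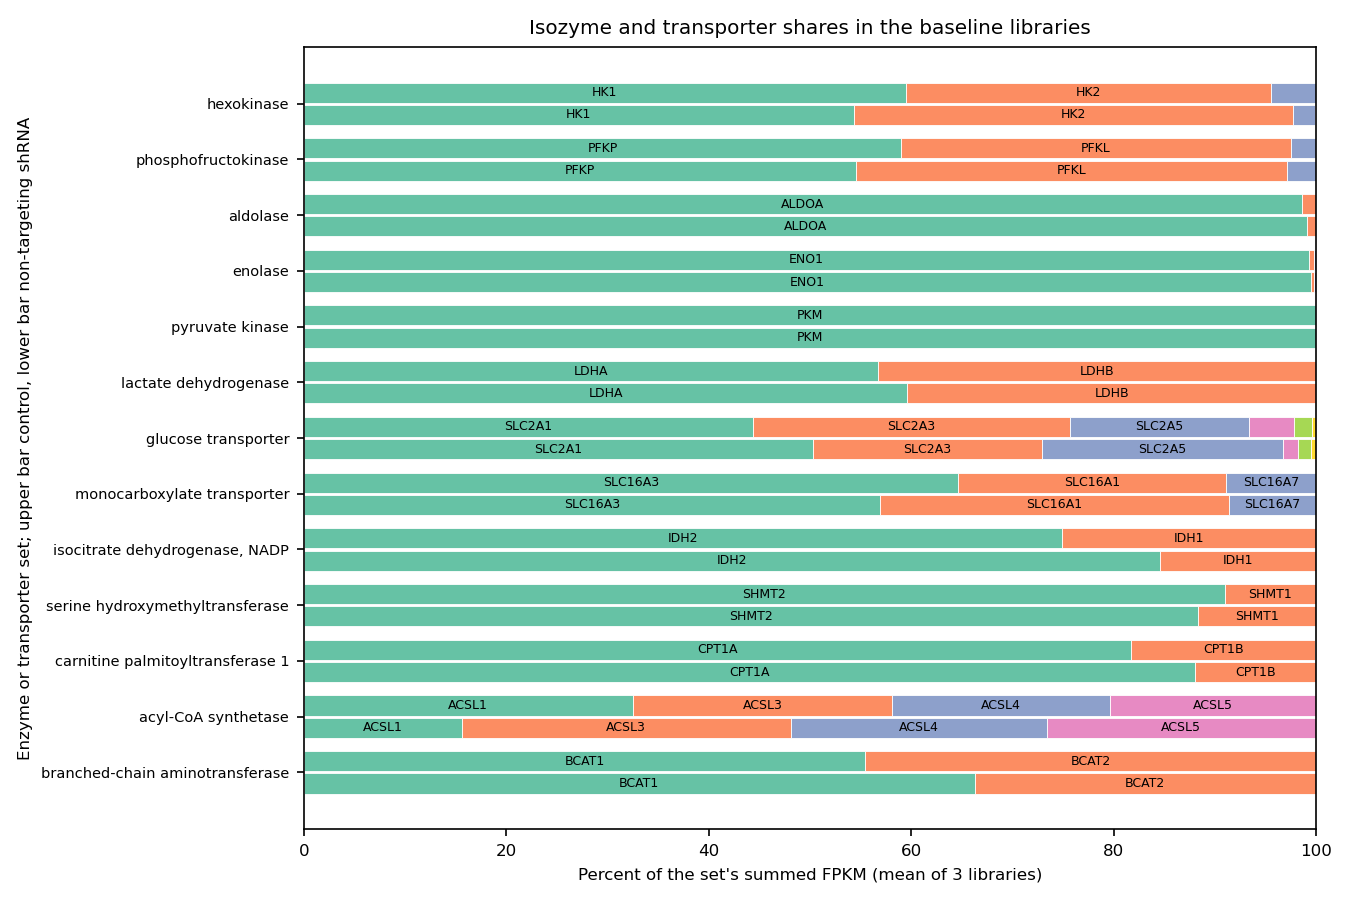
Percent of the summed FPKM (horizontal axis) held by each gene of 13 enzyme or transporter sets, as the mean of 3 libraries, with control as the upper and non-targeting shRNA as the lower bar of each pair. Colours separate the genes of a set and shares over 7% carry the gene symbol. Aldolase, enolase and pyruvate kinase were almost wholly ALDOA, ENO1 and PKM, and ACSL1 held 32.5% of the acyl-CoA synthetases in control and 15.6% with the non-targeting shRNA.

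The pentose phosphate pathway makes NADPH and ribose, and 7 of its 8 listed genes reached 1 FPKM in both groups. TKT, transketolase, was at 483, 596 and 552 FPKM in control, TALDO1, transaldolase, at 261, 269.9 and 272 FPKM and PGD, which yields NADPH, at 214, 212 and 209 FPKM. The sequence TKT, TALDO1, PGD from high to low held in all 6 libraries. TKTL1 was listed at 0 throughout.

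In the tricarboxylic acid cycle, 32 of 35 genes reached 1 FPKM in control and 33 with the non-targeting shRNA. CS, citrate synthase, was at 97.98, 103 and 99.4 FPKM in control, MDH2 at 99.9, 112 and 116 FPKM and SDHA at 56.7, 60.9 and 58.3 FPKM. IDH2, the mitochondrial isocitrate dehydrogenase mutated in some leukaemias, was at 90, 90 and 87.4 FPKM in control, and its cytosolic counterpart IDH1 at 29.7, 30.5 and 29.3 FPKM. IDH2 held 74.9% ± 0.260 of the pair in control (SD, n = 3) and 84.6% ± 0.604 with the non-targeting shRNA. Of 45 nuclear respiratory chain subunits, 42 and 41 reached 1 FPKM, and the median percentile was 97.2 and 97.6. COX4I1 was at 433, 464 and 454 FPKM in control and its lung form COX4I2 at 0 in all 6 libraries, and ATP5B, the catalytic chain of ATP synthase, was at 469, 498 and 483 FPKM.

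Most lipid genes were expressed. Of 33 fatty acid genes, 28 reached 1 FPKM in control and 29 with the non-targeting shRNA, and of 26 cholesterol genes 26 and 25. FASN, fatty acid synthase, was at 86.3, 80.5 and 79.04 FPKM in control, ACLY, shown above with its CpG-rich promoter, at 84.4, 82.6 and 81.7 FPKM, and SCD, the stearoyl desaturase, at 70.8, 66.4 and 65.8 FPKM. On the oxidation side, CPT1A, which admits fatty acids to mitochondria, was at 63.3, 63.04 and 60.8 FPKM and ACADVL at 105.2, 105.1 and 115 FPKM. In cholesterol synthesis SQLE, squalene epoxidase, was at 35, 33.5 and 36.1 FPKM. The enzymes FDFT1 and FDPS were the highest of the list, at 202 ± 6.76 and 201 ± 3.79 FPKM (SD, n = 3), a difference smaller than the spread between the libraries.

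One-carbon and amino acid genes supply methyl groups, purines and nitrogen. Of 20 serine, glycine and one-carbon genes, 18 reached 1 FPKM in each group. MTHFD2, a mitochondrial folate enzyme of proliferating cells, was at 137, 127 and 120.4 FPKM in control, SHMT2 at 117, 116 and 112 FPKM and PHGDH, the first enzyme of serine synthesis, at 40.2, 43.2 and 38.2 FPKM. All 3 ranked lower in every library with the non-targeting shRNA, with differences from -0.55 points for SHMT2 to -4.68 points for PHGDH, beside a median absolute difference of 1.51 points over all expressed genes, 62.2% of which did not overlap. GLUL, glutamine synthetase, was at 813, 784 and 748 FPKM in control and 918, 938 and 955 FPKM with the non-targeting shRNA. ASNS, asparagine synthetase, was at 27.1, 27.3 and 24.7 FPKM, percentile 84.99, and at 14.8, 15.2 and 16.1 FPKM, percentile 73.6. BCAT1, the cytosolic branched-chain aminotransferase, was at 25.9, 23.7 and 24.4 FPKM in control and held 55.5% ± 1.86 of the BCAT sum there (SD, n = 3) and 66.3% ± 1.04 with the non-targeting shRNA.

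All 27 listed genes of nucleotide synthesis and salvage reached 1 FPKM in both groups. IMPDH2, which commits purines to guanine, was at 276, 268 and 261 FPKM in control, RRM2, a ribonucleotide reductase subunit, at 129.7, 138 and 143 FPKM, and CAD, the first enzyme of pyrimidine synthesis, at 27.2, 27.9 and 25.9 FPKM. DHODH, the mitochondrial pyrimidine enzyme, was lower, at 6.92, 5.72 and 6.87 FPKM. Of 20 genes that handle cytarabine and anthracyclines, 16 reached 1 FPKM in each group. SLC29A1, which takes cytarabine up, was at 36.5, 36.2 and 37.2 FPKM in control, DCK, which activates it, at 19, 17.3 and 16.7 FPKM, and SAMHD1, which hydrolyses its active form, at 12.2, 13.2 and 12.4 FPKM. CDA, which inactivates cytarabine, was listed at 0 in 5 of the 6 libraries and at 0.0243 FPKM in 1, and ABCB1, the efflux pump, was under 0.2 FPKM in each.

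Iron and redox genes reached 1 FPKM in 34 of 35 cases in both groups. FTL, the light chain of ferritin, was at 3406, 3871 and 3871 FPKM in control and 1956, 2064 and 2064 FPKM with the non-targeting shRNA, and FTH1, the heavy chain, at 387, 449 and 420.3 FPKM and 248, 255 and 251 FPKM. CYBB, the catalytic subunit of the phagocyte oxidase, was at 12.4, 11.7 and 11.1 FPKM in control, percentile 70.9, and at 4.14, 3.88 and 4.07 FPKM with the non-targeting shRNA, percentile 53.95, while its partner CYBA was at 282, 289 and 289 FPKM in control. CYBA ranked slightly higher and CYBB lower in each non-targeting shRNA library. CAT, catalase, was at 138, 127 and 123 FPKM and SOD2 at 72.02, 71.6 and 74 FPKM in control.

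Genes that are recurrently mutated in leukaemia were mostly expressed, 35 of 40 in each group. NPM1, nucleophosmin, was at 1620, 1768 and 1737 FPKM in control, and the splicing factors SRSF2 and SF3B1 at 199 ± 2.02 and 90.8 ± 2.74 FPKM (SD, n = 3). The epigenetic regulators ASXL1, DNMT3A and TET2 lay lower, at 15.9 ± 0.549, 11.7 ± 0.636 and 6.62 ± 0.471 FPKM in control, and WT1, a marker used to follow many leukaemias, was at 0.508, 0.656 and 0.689 FPKM. ASXL1, DNMT3A, TET2 and WT1 overlapped in rank between the groups.

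Of the proliferation genes, 32 of 34 reached 1 FPKM in each group. MKI67 was at 60.01, 64.4 and 61.9 FPKM in control, PCNA, the sliding clamp, at 234, 248 and 233 FPKM and CDK4 at 104.6, 93.7 and 97.3 FPKM. Of the D cyclins, CCND3 was at 42.2, 45.8 and 44.95 FPKM, CCND2 at 39.8, 36.8 and 34.8 FPKM and CCND1 at 6.46, 6.06 and 5.97 FPKM in control. CCND3 held 50.6% ± 2.52 of their sum in control and 39.3% ± 1.28 with the non-targeting shRNA, and CCND2 42.3% ± 2.30 and 50.03% ± 0.607 (SD, n = 3). The inhibitor CDKN1A was at 136, 155 and 152 FPKM in control and 87.9, 87.2 and 87.5 FPKM with the non-targeting shRNA, and CDKN2A at 18.4, 19.6 and 17.6 FPKM in control. TERT, the telomerase catalytic subunit, was at 2.11, 2.08 and 1.45 FPKM, percentile 48.9, and at 4.47, 5.24 and 4.54 FPKM, percentile 55.7.

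Set against each other by rank, the control and the non-targeting shRNA libraries shared most of their highest genes, and the rank of a gene in 1 group was close to its rank in the other. Of the 100 highest genes of each group 95 were shared, and of the 500 highest 457. Over the 11057 genes at 1 FPKM or more in either group, the median absolute difference in percentile was 1.51 points, and 90% of the genes differed by at most 5.1 points. Small differences were common: 6874 genes (62.2%) had groups that did not overlap, whereas 18 (0.163%) also differed by 20 points or more. The groups differ in table, normalization, transduction and time, and these cannot be told apart. The rank differences are given as a description and were not tested.

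A rank at least 20 points higher with the non-targeting shRNA, with no overlap, was found for 4 genes (0.0362% of the 11057). MEGF10, a receptor for the engulfment of dying cells, was at 0.378, 0.726 and 0.589 FPKM in control and 13.1, 14.3 and 11.4 FPKM with the non-targeting shRNA, and its percentile went from 42.1 to 70.6. The others were MS4A4A, a macrophage membrane protein, from 52.9 to 77.4, the kinesin KIF17 from 44.6 to 67.9, and MDFI, an inhibitor of myogenic factors, from 55.4 to 76.6. No member of the gene lists passed the limit in this direction, and the nearest among these genes was CD34, higher by 19.6 points.

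A rank at least 20 points lower was found for 14 genes (0.127%), of which 7 belong to the lists: CD82, NKG7, IL7R, CXCL8, CR1, PRG2 and CCL2. CD82, a tetraspanin, was at 35.2, 34.9 and 35.8 FPKM in control, percentile 88.8, and at 3.798, 6.396 and 4.69 FPKM with the non-targeting shRNA, percentile 56.1. PRG2, the eosinophil major basic protein, was at 6.33, 6.16 and 4.78 FPKM in control and 0.0779, 0.1403 and 0.264 FPKM with the non-targeting shRNA, percentiles 59.8 and 35.4. Outside the lists, SERPINA1, alpha-1 antitrypsin, a product of monocytes and neutrophils, went from percentile 91.04 to 60.1, the haemoglobin-binding protein HP from 77.8 to 51.2, and ADGRG3, an adhesion receptor of granulocytes, from 71.03 to 44.3. The gene closest to the limit among those short of 20 points was OLIG1, at percentile 83.4 and 63.8. When only the expressed genes were ranked, which spreads them over the whole scale, 62 genes were higher and 86 lower by the same limit.

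**Figure D4:**
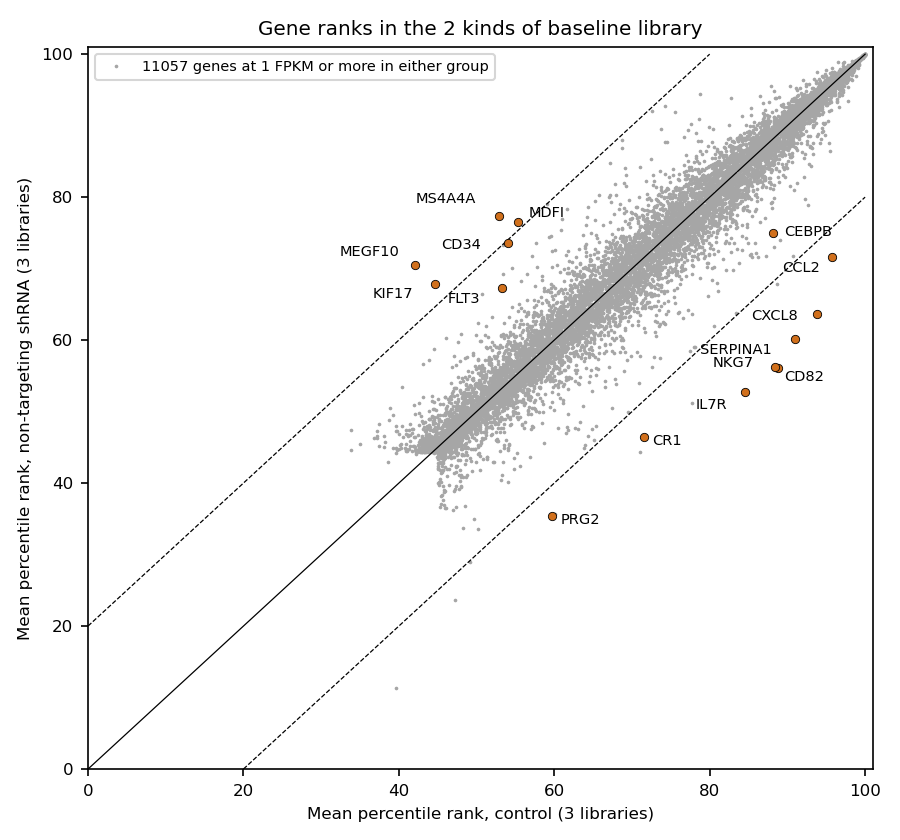
Mean percentile rank of the 11057 genes at 1 FPKM or more in either group, in control (horizontal axis) and non-targeting shRNA (vertical axis), 3 libraries each. The solid line marks equal ranks and the dashed lines 20 points either way, and named genes are in orange. Most genes lie within 5.1 points of the line, 4 genes lie above the upper line and the genes below the lower line include CD82, NKG7, IL7R, CXCL8 and CCL2.

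The genes of the baseline description were next followed into the other conditions, each against its own baseline group. Both drug comparisons use the same 3 control libraries and are given side by side. By limma and Benjamini-Hochberg adjustment, ARV-825 changed 74.2% of 10819 genes (35.8% rose, 38.4% fell), OTX015 69.6% (36.1% rose, 33.5% fell), and the RUNX1 shRNA 27.4% of 10925 (13.5% rose, 13.8% fell). The 1512 genes that fell with the RUNX1 shRNA became 978 without non-targeting shRNA replicate 2 and 966 without replicate 3. Of the lineage genes tested, 20 of 79 rose and 50 fell with ARV-825 (88.6% called), 10 rose and 51 fell with OTX015 (77.2%), and 22 of 78 rose and 26 fell with the RUNX1 shRNA (61.5%). Their median log2 changes were -0.52, -0.44 and 0.03, beside -0.01, 0.03 and -0.01 over all genes tested. Each table is read as quantile normalized, which makes the distribution of values alike in its libraries and holds these last medians near 0. Rises and falls here and below are therefore relative to the other genes, and a change shared by most genes would not show.

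Receptor and cytokine genes had 39 of 160 higher and 96 lower with ARV-825 (84.4% called) and 35 higher and 97 lower with OTX015 (82.5%), with median log2 changes of -0.43 and -0.37. With the RUNX1 shRNA 34 of 161 rose and 30 fell (39.8%), and 17 fell without non-targeting shRNA replicate 2. Surface genes were even in direction with ARV-825, with 34 of 77 higher and 33 lower (87.0% called). With OTX015 14 were higher and 43 lower (74.0%), and with the RUNX1 shRNA 30 of 81 rose and 15 fell (55.6%). The shares of all tested genes called were 74.2%, 69.6% and 27.4%. Metabolism genes were called at shares near the background in the drug comparisons, 74.1% and 66.9% of 293, and at 33.7% of 294 with the RUNX1 shRNA, where 32 rose and 67 fell, or 42 without non-targeting shRNA replicate 3. The difference between ARV-825 and OTX015 in these counts was not tested.

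**Figure D5:**
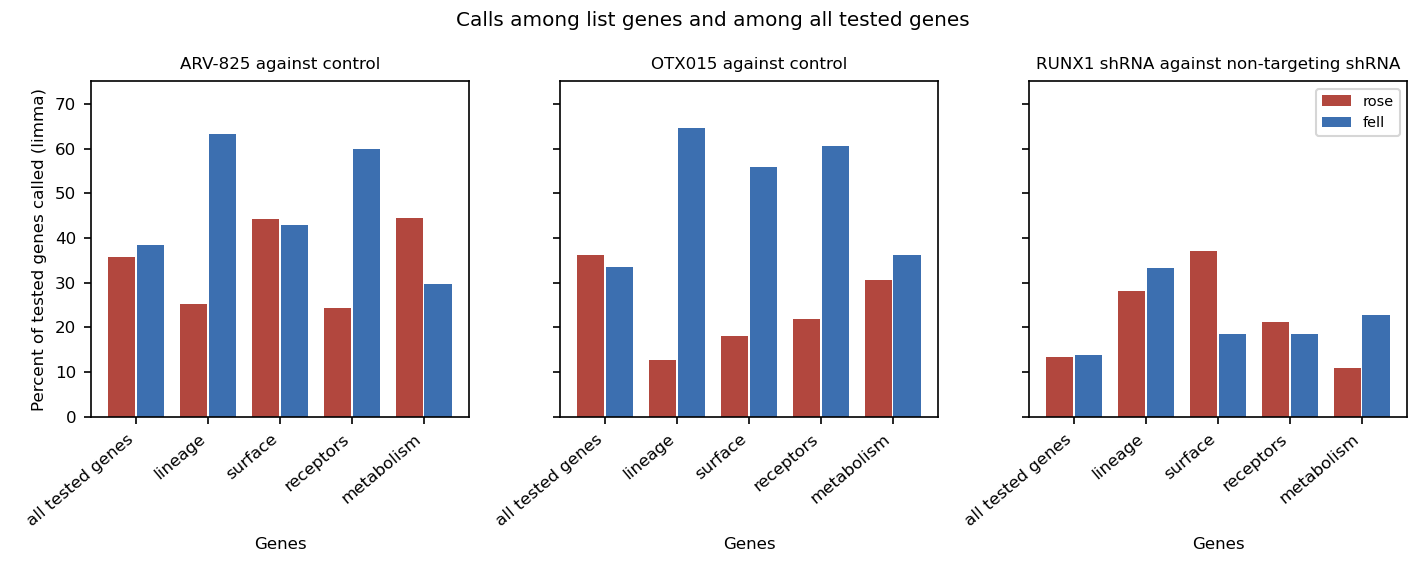
Percent of tested genes that rose (red) or fell (blue) by limma with Benjamini-Hochberg adjusted p below 0.05 (vertical axis), for all tested genes and for the lineage, surface, receptor and metabolism genes, with 3 libraries a group. In both drug panels the blue bars of lineage, surface and receptor genes stand above those of all tested genes, at 38.4% and 33.5%. The blue bar of metabolism genes does so with OTX015 only.

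With ARV-825 the largest fall among lineage genes was that of CCR2, from 34.3, 33.9 and 31.3 to 0.415, 0.267 and 0.797 FPKM, a log2 change of -4.53 ± 0.113 (SE) by limma with Benjamini-Hochberg adjustment, adjusted p = 3.72e-10. MYC fell from 287, 295 and 281 to 24.1, 21.4 and 23.6 FPKM, MYB from 178, 184 and 180 to 26.3, 26.5 and 25.5 FPKM, and the erythroid and myeloid factor NFE2 from 37.3, 39.01 and 39.4 to 3.995, 3.796 and 3.63 FPKM. In the other direction KLF2, a factor of quiescent cells, rose from 5.19, 6.004 and 6.98 to 70.2, 62.3 and 58.4 FPKM, with a log2 change of 3.20 ± 0.098, and EGR1, BCL6, KLF6 and NFIL3 also rose. All 3 treated libraries lay outside the control range for each of these genes. Among genes of the surface lists CD93, SELPLG and CIITA fell, CD93 from 41.8, 44.2 and 39.8 to 4.79, 5.07 and 5.55 FPKM. The NKG2D ligands ULBP2 and MICA and the class I gene HLA-E rose. PTAFR, CCL2, IL1RN and IL16 fell among receptors and cytokines, and TNFRSF10D, a decoy receptor of TRAIL, rose from 2.53, 2.85 and 2.78 to 24.2, 24.1 and 22.9 FPKM. In metabolism the amino acid transporters SLC7A1, SLC38A1 and SLC7A5 fell, SLC7A5 from 99.5, 102 and 92.98 to 33.9, 33.9 and 34.4 FPKM, and the sterol reductase TM7SF2 and the isomerase IDI1 rose.

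With OTX015 CCR2 fell from the same control values to 2.24, 2.16 and 2.08 FPKM, a log2 change of -3.43 ± 0.113 (SE) by limma with Benjamini-Hochberg adjustment, adjusted p = 2.76e-09. CSF1R fell from 40.02, 41.6 and 41.8 to 8.02, 8.403 and 8.37 FPKM, and FCGR1A from 48.99, 55.2 and 56.6 to 12.97, 10.8 and 11.3 FPKM. KLF2 rose to 69.8, 79.5 and 67.7 FPKM, and KLF6, NFIL3, BCL6 and JUNB rose as well. TGFB1 rose from 103, 122 and 118 to 498, 503 and 483 FPKM with OTX015 and to 253, 231 and 233 FPKM with ARV-825, and the ferritin light chain FTL rose from 3406, 3871 and 3871 to 8076, 9579 and 7358 FPKM with OTX015. The 3 OTX015 libraries lay above all control libraries for TGFB1 and FTL.

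With the RUNX1 shRNA granule genes fell from their baseline: CTSG from 12.4, 11.2 and 12.2 to 4.94, 4.42 and 4.21 FPKM, a log2 change of -1.22 ± 0.07 (SE) by limma with Benjamini-Hochberg adjustment, adjusted p = 1.49e-05, and MPO, PRSS57 and CFD likewise fell. CD34 rose from 15.98, 14.99 and 15.03 to 30.5, 29.3 and 29.6 FPKM, a log2 change of 0.91 ± 0.041 (SE), adjusted p = 4.08e-06 by limma with Benjamini-Hochberg adjustment. The monocyte gene FCGR1A had the second largest rise of the lineage genes, from 28.9, 26.7 and 31.2 to 55.3, 46.8 and 51.7 FPKM, a log2 change of 0.81 ± 0.07 (SE), adjusted p = 0.000132 by limma with Benjamini-Hochberg adjustment. GATA2 and MEF2C also rose, GATA2 from 13.6, 13.2 and 12.9 to 22.9, 21.3 and 23.5 FPKM. MEIS1 rose from 1.697, 1.196 and 1.704 to 2.02, 3.29 and 2.89 FPKM, a call that was lost when no filter on low values was used (adjusted p = 0.0764 by limma with Benjamini-Hochberg adjustment), and also without non-targeting shRNA replicate 2 or RUNX1 shRNA replicate 2 or 3. Of 24 granule genes 9 were tested and 8 fell, beside 13.8% of all genes tested. Of 22 stem and progenitor genes 11 were tested, of which 8 rose and 1 fell, beside 13.5% and 13.8% of all. ITGAM, the myeloid integrin chain, rose from 6.36, 6.603 and 6.49 to 15.3, 13.6 and 13.6 FPKM, CYBB from 4.14, 3.88 and 4.07 to 9.98, 9.78 and 9.72 FPKM, and the adenosine receptor ADORA3 from 1.01, 1.39 and 0.98 to 3.47, 3.06 and 4.29 FPKM. IL7R, already low with the non-targeting shRNA, fell to 1.82, 1.42 and 1.68 FPKM. In metabolism the ATP synthase subunit ATP5C1 fell from 154, 154 and 154 to 73.98, 80.2 and 73.04 FPKM, SLC2A1 from 39.7, 41.8 and 41.8 to 22.9, 18.3 and 20.96 FPKM and GLUL from 918, 938 and 955 to 600.3, 559.8 and 576 FPKM. ASNS and GSR rose.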

How the data were processed

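RNA-seq of OCI-AML5 cells was deposited as 2 tables of 19620 entries, read here as FPKM. The unit of the deposited FPKM values is read from the listed tools and from the values: TopHat2 2.0, Cufflinks 2.0 and hg19 are named per the submitters' processing notes, with no role or order. No label states the normalization. Each table is read as quantile normalized on its own, from an abbreviation in its name and because in the baseline libraries 82.7% to 86.6% of the values above 0 recur exactly in another library of the group. The annotation was not stated, and the read depth is unknown. The series calls the replicates biologic triplicates.

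For each library, genes were ranked after 16 pseudoautosomal Y copies were left out and 28 symbols that had become dates were restored. Of the IDs, 19313 matched GENCODE release 29. The 40 gene lists hold 991 genes, and 10 further symbols were not analysed here. Some genes of the lists are not reported here. The members and lists were chosen with earlier results of these data known. Conditions were compared with limma 3.58.1 (R 4.3.3) on log2(FPKM + 1) values computed from the deposited FPKM, with an intensity trend, two-sided, for genes averaging 1 FPKM or more, at a Benjamini-Hochberg adjusted p of 0.05. A fold change on this scale understates the change of low genes. The 9 drug libraries shared 1 fit and the 6 shRNA libraries another, and the fit was tested on simulated data. Named genes were the markers fixed for each list and its 4 other highest members in control, the 20 highest genes of each group, the 10 largest rank differences each way, and the 5 largest rises and falls of each category and comparison. Alternatives were the expression limit, the genes ranked, the pseudocount, the filter, a median-ratio scaling, a replicate block and leaving out each replicate. Promoter windows came from RefSeq (GRCh38.p14), a build other than that of the deposited tables, and were joined by symbol only.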

Additional observations from a re-analysis of the deposited data

How the results depend on the processing

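The counts of genes whose rank differed by 20 points between control and non-targeting shRNA depended most on the settings. They were 62 higher and 86 lower when only expressed genes were ranked, 88 and 121 at a limit of 10 points, and 4 to 6 and 12 to 16 without 1 replicate. With the RUNX1 shRNA, 966 to 1436 genes fell and 1031 to 1404 rose without 1 replicate. The lowest counts of falls were without non-targeting shRNA replicate 3 (966) and replicate 2 (978). Same-numbered replicates did not deviate together (r = -0.135 to 0.061), so they share only a number, and a replicate block gave 3753 rises and 4018 falls with ARV-825, 3739 and 3523 with OTX015, and 1303 and 1282 with the RUNX1 shRNA. Genes at 0.5 FPKM or more numbered 11450 in control and 11524 with the non-targeting shRNA, and at 5 FPKM or more 8229 and 8563. Of 1475 alternatives for 115 named gene results, 1458 kept the direction and the call, 17 lost the call and 0 reversed. These results were picked as the largest changes already past the threshold, which favours their survival. The tally therefore does not describe the genes called at large. The calls lost were those of CD82, HAVCR2, HLA-DQA1 and MEIS1 with the RUNX1 shRNA, with adjusted p of 0.097, 0.0529, 0.0643 and 0.0764 by limma with no filter on low values. The cause was not tested. Unknown depth limits what can be said of genes near 0.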
